A study of Brassica rapa subsp. pekinensis with 6 samples.

Results

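The BrFLC copies are the *Brassica rapa* counterparts of FLOWERING LOCUS C (FLC), and 4 of the 41173 genes on the Br135K microarray were examined here: BrFLC1 (Bra009055), BrFLC2 (Bra028599), BrFLC3 (Bra006051) and BrFLC5 (Bra022771). They were picked by gene identity, with no rule on their values. The deposited table gives Bra identifiers alone, and the copy names are those in general use for these gene models. BrFLC2 and BrFLC3 gave strong and nearly level signals in every sample, BrFLC1 gave less signal in Kenshin than in Chiifu at every temperature, and BrFLC5 was weakly measured, above all in Kenshin.

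In Arabidopsis, FLC encodes a MADS-box transcription factor that holds back flowering by repressing FT, the mobile flowering signal, and SOC1, a floral integrator. Prolonged cold silences FLC through VIN3 and Polycomb proteins, and the gene stays silent after the return to warmth, which is the basis of vernalization. *B. rapa* kept several FLC copies after the triplication of its genome, and Chinese cabbage bolts once cold has removed this brake.

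The 6 samples were shoots of 2 Chinese cabbage inbred lines, Kenshin and Chiifu, with 1 deposited sample for each line at each of 3 temperatures. Plants grew for about 3 weeks at 22 °C, spent 2 days at 12 °C and were then moved to 28 °C for 3 h, and a sample was taken at each step. The labels name no mutant or transgene, each line was represented by 1 inbred genotype, and shoots of several plants were pooled for a sample. The 28 °C samples of both lines had therefore also been through the cold, so that 28 °C and the time since the cold cannot be told apart. The study describes repeated experiments and mean values, whereas the labels list 1 sample per line and temperature, so the spread between plants or cultures is not in these values.

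RNA was labelled with 1 dye, and each gene was represented by a few overlapping probes near its 3′ end, designed on the Chiifu sequence. The value of a gene is its probe intensity (PI), a linear brightness. Genes over a PI of 500 numbered 23669 to 24035 per sample, and 26948 genes passed 500 in at least 1 sample and are called detected below. The sample medians over all genes lay between 965.1 and 1034. Of the heat-response genes, BrHSFA2 (Bra000557), a heat shock transcription factor, read 256, 542.3 and 1786 at 22, 12 and 28 °C in Kenshin. In Chiifu it read 67.72, 222.8 and 1256. BrROF2 (Bra037477) had ratios of 28 over 12 °C of 18.8 in Kenshin and 17.6 in Chiifu. For both genes the samples labelled 28 °C were the highest of each line. The study reported these rises from the same arrays, so they are no separate check of the labels. The shoot origin was not checked against marker genes, because no table used here pairs the needed Bra identifiers with names. No sequence of the copies is given for the same reason. In a pooled shoot, fewer cells that express a gene and less RNA per cell cannot be told apart.

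All 4 copies were detected, and 3 of them passed 500 in all 6 samples. BrFLC2 had PI values of 6155, 7455 and 6285 at 22, 12 and 28 °C in Kenshin, against 6682, 6628 and 7033 in Chiifu. Its highest value, in Kenshin at 12 °C, was 1.21 times its lowest, in Kenshin at 22 °C, and the lines overlapped. Only 2.88% of detected genes spanned a smaller range over the 6 samples, where the median gene spanned 1.97-fold.

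BrFLC3 read 5320, 5773 and 5431 in Kenshin at 22, 12 and 28 °C, against 4528, 4481 and 5912 in Chiifu. The lines overlapped, since the Chiifu sample at 28 °C was the highest of the 6 and the other Chiifu samples were the lowest. The range was 1.32-fold, which exceeded that of 9.45% of detected genes.

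BrFLC1 read 1262, 1264 and 956.2 in Kenshin at 22, 12 and 28 °C, against 2790, 2564 and 4036 in Chiifu. Every Kenshin sample lay below every Chiifu sample. The share of detected genes whose lines were separated in this way was not counted, so how common it is cannot be said. The range of 4.22-fold was larger than that of 82.3% of detected genes, and both of its ends were 28 °C samples, Kenshin the lowest and Chiifu the highest.

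BrFLC5 read 337.8, 649.4 and 402.1 in Kenshin at 22, 12 and 28 °C, against 934.5, 902.9 and 943.1 in Chiifu. It passed 500 in 4 samples, all 3 of Chiifu and Kenshin at 12 °C, and the lines again did not overlap. As for BrFLC1, the share of detected genes whose lines were separated in this way was not counted. The Chiifu values were nearly level, while the Kenshin sample at 12 °C stood above the other Kenshin samples. The range was 2.79-fold, larger than that of 70.0% of detected genes.

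**Figure D1:**
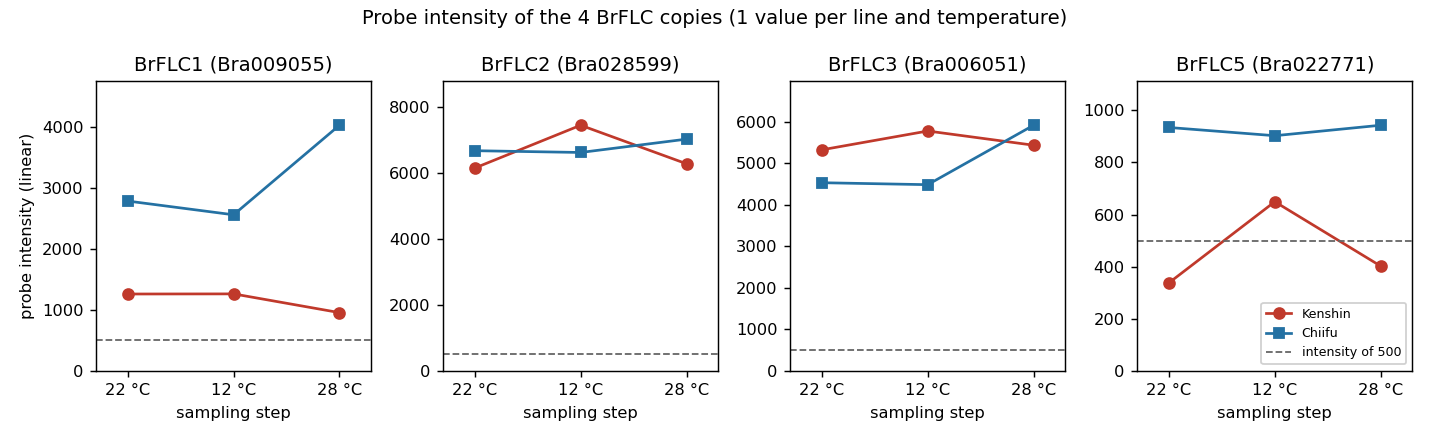
Probe intensity (linear axis from 0, a scale of its own for each copy) of the 4 BrFLC copies at 22, 12 and 28 °C, with 1 point per deposited sample, Kenshin in red circles, Chiifu in blue squares and the intensity of 500 dashed. BrFLC1 and BrFLC5 lie lower in Kenshin at every temperature, and BrFLC5 falls below 500 in Kenshin at 22 °C (337.8) and at 28 °C (402.1).

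The deposited table also holds 15 control features, namely 1 of random sequence and 14 for the marker genes sGFP and Bar, which are used in transgenic plants. By their names the 14 marker features form pairs, each with a partner marked AS, and partners could read alike. In Kenshin at 28 °C, 1 such pair read 1116 and 1083. Counts out of 14 are therefore not counts of separate controls. The random-sequence feature read 26.88 to 30.54, and each copy exceeded it in every sample, BrFLC1 by 34.8- to 132-fold, BrFLC2 by 220- to 266-fold, BrFLC3 by 167- to 206-fold and BrFLC5 by 12.1- to 34.5-fold. The marker features were a stricter yardstick, since 6 of the 14 passed 500 in at least 1 sample and their brightest value was 1517, in Chiifu at 28 °C.

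BrFLC2 and BrFLC3 were above every control feature in all 6 samples. BrFLC1 was above them all in 5 samples, and in Kenshin at 28 °C 2 of the 14 marker features were brighter than it. BrFLC5 was above them all in 2 samples, Chiifu at 22 and at 12 °C. In Kenshin, 7, 2 and 6 of the 14 marker features were brighter than BrFLC5 at 22, 12 and 28 °C, against 0, 0 and 2 in Chiifu. By these readings BrFLC2 and BrFLC3 were well measured throughout, BrFLC1 was well measured in Chiifu and nearer to the controls in Kenshin, and the level of BrFLC5 in Kenshin lay within the range of the marker features. The part that unspecific signal takes in BrFLC5 was not tested.

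**Figure D2:**
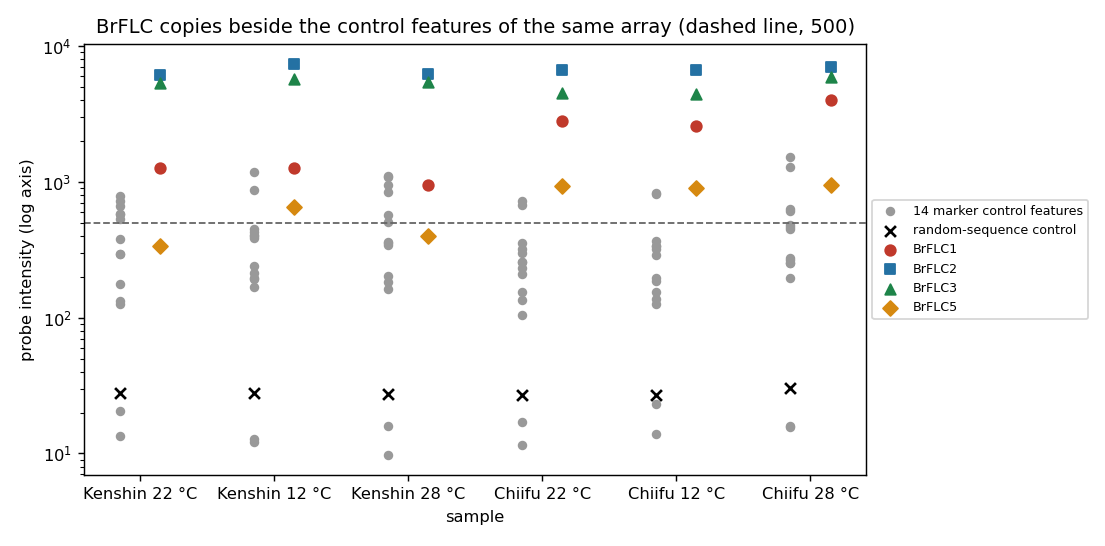
Probe intensity (log axis) of the 4 BrFLC copies in each of the 6 samples, Kenshin on the left and Chiifu on the right, beside the 14 marker control features (grey) and the random-sequence control (cross), with the intensity of 500 dashed. BrFLC2 and BrFLC3 stand above all controls in every sample, and BrFLC5 lies among the marker features in Kenshin.

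Cold for 2 days (LT, the ratio of 12 over 22 °C) moved no copy by 2-fold in either line. No sample had a longer cold, so the answer of the copies to prolonged cold cannot be read from these ratios. In Kenshin the ratios were 1.002 for BrFLC1, 1.211 for BrFLC2, 1.085 for BrFLC3 and 1.922 for BrFLC5. In Chiifu they were 0.919 for BrFLC1, 0.9919 for BrFLC2, 0.9896 for BrFLC3 and 0.9661 for BrFLC5. The copies past 2-fold numbered 0 of 4 in each line, against 12.8% of detected genes in Kenshin and 10.4% in Chiifu.

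The one LT value near the cutoff was that of BrFLC5 in Kenshin, whose 1.922-fold ratio was larger in size than that of 86.0% of detected genes. It compares 649.4 with 337.8, of which the second is under 500, and it passed 2-fold (2.005) once the random-sequence control was subtracted. None of the 14 marker features rose as much between these samples, their median ratio being 1.12. However, 2 of them fell past 2-fold, with a lowest ratio of 0.357. For the other copies LT was small in both lines. The median log2 LT ratio of the copies was 0.20 in Kenshin and −0.03 in Chiifu, beside 0.02 and −0.02 over all detected genes in the same lines, and the median detected gene differed 1.24-fold in size in Kenshin and 1.23-fold in Chiifu.

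Warming (28 over 12 °C) gave ratios below 1 for all 4 copies in Kenshin and above 1 for all 4 in Chiifu. In Kenshin the ratios were 0.7563 for BrFLC1, 0.843 for BrFLC2, 0.9408 for BrFLC3 and 0.6192 for BrFLC5. In Chiifu they were 1.574 for BrFLC1, 1.061 for BrFLC2, 1.319 for BrFLC3 and 1.045 for BrFLC5. No ratio reached 2-fold, which 13.8% of detected genes did in Kenshin and 17.2% in Chiifu.

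This sign pattern, lower in Kenshin and higher in Chiifu at any size, was shown by 4 of 4 copies and by 18.8% of detected genes. The opposite pattern for LT, higher in Kenshin and lower in Chiifu, was also shown by 4 of 4 copies and by 20.7% of detected genes, but the LT ratios of BrFLC2 and BrFLC3 in Chiifu changed sides to 1.006 and 1.003 when each sample was scaled to the same median. LT and warming share the 12 °C samples, so the patterns are not separate. With 1 sample per line and temperature, no test of Kenshin against Chiifu was possible for these ratios.

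The warming ratio of BrFLC1 in Chiifu, 1.574, was larger in size than that of 69.2% of detected genes, and that of BrFLC3, 1.319, than that of 50.8%. The control features moved alongside. In Chiifu 13 of the 14 marker features also read higher at 28 than at 12 °C, with a median ratio of 1.54, and 5 of them exceeded the ratio of BrFLC1 and 11 that of BrFLC3. In Kenshin the marker features had a median warming ratio of 0.962, and 6 of the 14 were above 1. Of the 14 marker features, 9 had their highest value in the Chiifu sample at 28 °C. Their part in the copies' ratios was not tested. All detected genes together were nearly level by warming, with a median log2 ratio of 0.01 in Kenshin and 0.04 in Chiifu, against −0.33 and 0.24 for the copies in those lines.

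Minor warming (28 over 22 °C) spans both steps. The ratios in Kenshin were 0.7577 for BrFLC1, 1.021 for BrFLC2, 1.021 for BrFLC3 and 1.19 for BrFLC5. In Chiifu they were 1.447 for BrFLC1, 1.052 for BrFLC2, 1.306 for BrFLC3 and 1.009 for BrFLC5. BrFLC1 was thus the copy farthest from 1 in both lines, below it in Kenshin and above it in Chiifu, while BrFLC5 in Kenshin lay within 1.19-fold of its level before the cold. No copy passed 2-fold, beside 13.6% of detected genes in Kenshin and 14.2% in Chiifu. In Chiifu 10 of the 14 marker features exceeded the ratio of BrFLC1, with a median of 1.76.

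**Figure D3:**
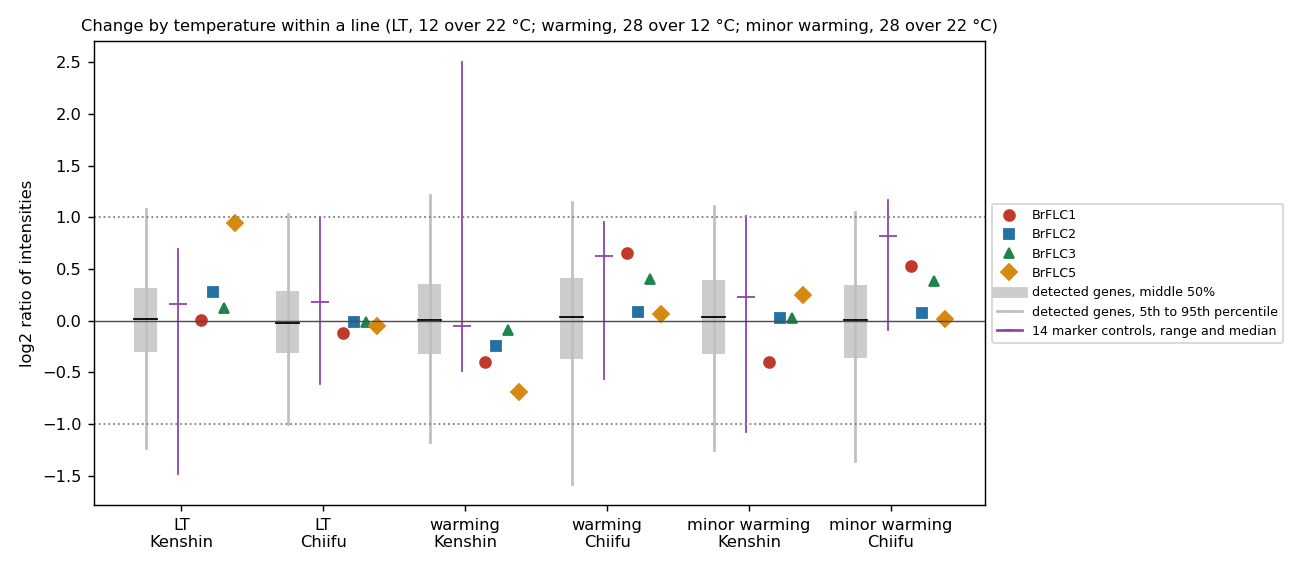
Log2 ratio of intensities within a line for LT (12 over 22 °C), warming (28 over 12 °C) and minor warming (28 over 22 °C), for each BrFLC copy, for all detected genes (grey box, middle 50%; grey line, 5th to 95th percentile; black bar, median) and for the 14 marker features (purple, range and median). No copy reaches the dotted lines at 2-fold, BrFLC5 by LT in Kenshin (1.922-fold) being the nearest, and all 4 copies lie below 0 by warming in Kenshin and above 0 in Chiifu.

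A change by temperature that the lines share was fitted with limma on log2 intensities over all 41173 genes, with line as a block. In this fit the samples of Kenshin and Chiifu stand in for repeats of a temperature, so a copy that moved in opposite directions adds to the error. None of the copies was called for LT, warming or minor warming, with adjusted p between 0.7041 and 0.967 (limma). The estimate farthest from 0 was that of BrFLC5 for LT, a log2 difference of 0.45 ± 0.33 (SE) with a 95% interval of −0.45 to 1.34. For BrFLC2, the best measured copy, the interval of the LT difference was −0.48 to 0.75 and that of the warming difference −0.69 to 0.53. For BrFLC3 it was −0.61 to 0.71 by LT and −0.50 to 0.81 by warming, for BrFLC1 −1.02 to 0.90 by LT and −0.83 to 1.09 by warming, and for BrFLC5 −1.21 to 0.58 by warming. Before adjustment over genes, the LT and warming intervals of BrFLC2 and BrFLC3 hold no shared 2-fold change, while those of BrFLC1 reach a level 2-fold lower by LT and 2-fold higher by warming, and those of BrFLC5 reach a level 2-fold higher by LT and 2-fold lower by warming. Over all genes limma called 0 (0.0%) for each of the 3 contrasts, with 4214, 5287 and 5048 genes at an unadjusted p under 0.05 for LT, warming and minor warming. When the prior variance was allowed to follow the intensity, limma called 5, 153 and 2 genes, none of them a BrFLC copy.

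The clearest difference was that between the lines. The ratio of Kenshin over Chiifu for BrFLC1 was 0.4523 before the cold at 22 °C, 0.4932 at 12 °C and 0.2369 after warming to 28 °C, so that Kenshin was at least 2-fold lower at each temperature. The ratio at 12 °C lies close to the cutoff, and with 50 added to each intensity it became 0.5029. BrFLC1 was the only one of the 4 copies with a ratio past 2-fold at all 3 temperatures, which 3.98% of detected genes (1072 genes) also showed. Its ratio was larger in size than that of 85.4% of detected genes at 22 °C, 88.0% at 12 °C and 93.9% at 28 °C. None of the 14 marker features was as far below 1 at any of the 3 temperatures. In the other direction, 2 of them were past 2-fold at 22 °C and 2 at 28 °C. Their highest Kenshin over Chiifu ratios were 2.55 at 22 °C and 4.38 at 28 °C. Most marker features nevertheless read lower in Kenshin at 28 °C, with a median ratio of 0.792 and 2 of the 14 above 1. At 22 °C 12 of the 14 were above 1, and at 12 °C 11 were. The part of this shift in the BrFLC1 ratio at 28 °C was not tested.

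BrFLC5 had Kenshin over Chiifu ratios of 0.3615 at 22 °C, 0.7193 after the cold at 12 °C and 0.4264 at 28 °C. It was past 2-fold at 22 and 28 °C, where its Kenshin intensity was under 500, and not at 12 °C, where its intensity passed 500 in both lines. At 12 °C the gap was narrower, and it was the Kenshin value that differed there, while the Chiifu values stayed between 902.9 and 943.1.

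BrFLC2 and BrFLC3 stayed near 1. The ratio of Kenshin over Chiifu for BrFLC2 was 0.9211 at 22 °C, 1.125 after the cold at 12 °C and 0.8936 at 28 °C. That of BrFLC3 was 1.175 at 22 °C, 1.288 after the cold at 12 °C and 0.9187 at 28 °C. Neither copy kept to one side of 1, and both were highest relative to Chiifu at 12 °C.

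Counted over the copies, 2 of 4 were at least 2-fold lower in Kenshin at 22 °C, 1 at 12 °C and 2 after warming to 28 °C, beside 8.83%, 7.16% and 8.28% of detected genes at those temperatures, and 0 were at least 2-fold higher in Kenshin, beside 8.55%, 5.18% and 10.3%. The median log2 ratio of the copies was −0.63 at 22 °C, −0.15 after the cold at 12 °C and −0.70 at 28 °C. Detected genes as a whole had medians of 0.04, 0.06 and 0.04, with 46.9%, 43.7% and 47.3% of them under 1 at 22, 12 and 28 °C. Since the sample medians over all genes were nearly equal, these values cannot show whether Kenshin signals were lower in general. The probes were designed on Chiifu sequence, and for a given gene a lower transcript level in Kenshin and a weaker match of its transcript to the probes cannot be told apart in these data.

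With the 3 temperatures as the repeats of a line, limma estimated a log2 difference of Kenshin minus Chiifu of −1.41 ± 0.29 (SE, 95% interval −2.20 to −0.63) for BrFLC1. Its unadjusted p was 0.00706 and its adjusted p 0.114, so the difference did not pass the threshold of 0.05 (limma, Benjamini-Hochberg over 41173 genes), although all 3 temperatures gave its direction. The adjusted p of BrFLC1 lay between 0.0402 and 0.324 over 7 alternatives, and it passed only where the prior variance followed the intensity. For BrFLC5 the difference was −1.06 ± 0.27 (95% interval −1.79 to −0.33), with an adjusted p of 0.169 (limma) and a range of 0.0985 to 0.469 over the alternatives. BrFLC2 differed by −0.04 ± 0.18 (95% interval −0.54 to 0.46) and BrFLC3 by 0.16 ± 0.20 (95% interval −0.38 to 0.70), intervals that hold no 2-fold difference. Of all genes, 1091 (2.65%) were called, 748 lower and 343 higher in Kenshin, and that count was 0 without the 22 °C samples, 0 without the 12 °C samples and 251 without the 28 °C samples.

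The fit takes a line difference that itself varies with temperature as error. That variation was largest in BrFLC1, whose Kenshin over Chiifu ratios spanned 2.08-fold over the temperatures, and in BrFLC5, with 1.99-fold, beside 1.26-fold in BrFLC2 and 1.4-fold in BrFLC3. The residual SD on the log2 scale was 0.41 for BrFLC1, 0.37 for BrFLC5, 0.18 for BrFLC3 and 0.13 for BrFLC2.

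**Figure D4:**
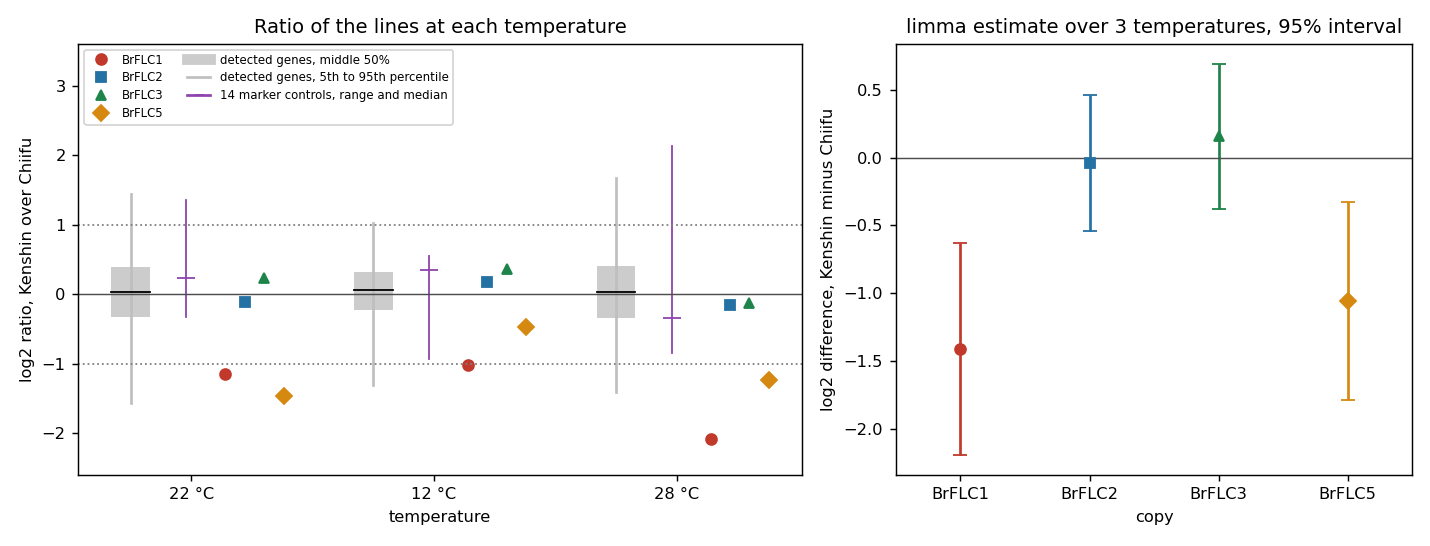
Left, log2 ratio of Kenshin over Chiifu at each temperature for each BrFLC copy, for all detected genes (grey box, middle 50%; grey line, 5th to 95th percentile; black bar, median) and for the 14 marker features (purple, range and median), with dotted lines at 2-fold. Right, the limma estimate of Kenshin minus Chiifu over the 3 temperatures with its 95% interval, −1.41 for BrFLC1 and −1.06 for BrFLC5, both with intervals below 0 before adjustment over all genes, and near 0 for BrFLC2 and BrFLC3.

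The copies were then compared with each other by the shape of their values over the 6 samples, centred on each gene's mean log2 intensity, and not by level, since probes of different genes differ in brightness. BrFLC1 and BrFLC5 were the pair with the highest Pearson's r, 0.864 over the 6 samples, and the other 5 pairs lay between −0.321 and 0.617, with 0.346 for BrFLC2 and BrFLC3. By the root mean square difference of the centred values, the closest pair was BrFLC2 and BrFLC3 (0.152), against 0.379 for BrFLC1 and BrFLC5. Which pair appears most alike thus depends on the measure. These values describe 6 samples that share 2 lines and 3 temperatures, and BrFLC1 and BrFLC5 both had every Kenshin value below every Chiifu value. The copies are related genes, and whether the probes of one copy also bound the transcript of another was not tested.

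Genes most like each copy were sought among detected genes by the root mean square difference of the centred log2 values over the 6 samples. For BrFLC1 these were Bra024573 (0.115), Bra018806 (0.134) and Bra006861 (0.149). Bra024573 read 2132, 2303 and 1796 in Kenshin at 22, 12 and 28 °C, against 5411, 4630 and 6139 in Chiifu, and thus had the same gap between lines. For BrFLC5 they were Bra015511 (0.0563), Bra025158 (0.0899) and Bra006515 (0.103). Bra015511 read 1828, 3452 and 2368 in Kenshin, against 5369, 5104 and 5027 in Chiifu, which is the pattern of BrFLC5 at intensities far over 500. Genes such as Bra024573 and Bra015511 were picked for their likeness to a copy. Their shared patterns follow from that choice and are no separate check of the copies' values.

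For BrFLC2 the nearest genes were Bra039464 (0.0248), Bra032297 (0.0274) and Bra008470 (0.0328), and for BrFLC3 they were Bra004643 (0.0378), Bra033697 (0.0398) and Bra017054 (0.0413). Both copies varied little, and distances between nearly level genes are small by construction. When genes were ranked by Pearson's r instead, none of the 3 genes named was kept for BrFLC1, BrFLC2 or BrFLC3, and after quantile normalization none was kept for BrFLC3. No names are attached to these identifiers here.

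The study pairs 9 other flowering-time and light-signalling genes with an identifier. They were BrCOL1 and 2 copies of BrCOL2, relatives of the photoperiod gene CONSTANS, 2 copies of BrPHYB, a red-light receptor that also senses temperature in Arabidopsis, 2 copies of BrPIF4, a growth regulator active in warmth, and 2 copies of BrHYH, a relative of the light-signalling factor HY5. All 9 were detected. BrCOL1 and the BrCOL2 and BrHYH copies are 5 genes that the study named because they fell by both LT and warming in Kenshin in these samples, so the Kenshin counts that follow are partly fixed by that choice and are given as a description. By LT, 1 of 9 was past 2-fold up and 5 past 2-fold down in Kenshin, against 5 up and 0 down in Chiifu, beside 12.8% of detected genes past 2-fold either way in Kenshin and 10.4% in Chiifu. By warming the counts were 1 up and 6 down in Kenshin, against 0 up and 5 down in Chiifu, and by minor warming 1 up and 5 down in Kenshin, against 0 up and 2 down in Chiifu. The shares of detected genes past 2-fold either way were 13.8% in Kenshin and 17.2% in Chiifu by warming, and 13.6% in Kenshin and 14.2% in Chiifu by minor warming. At 22 °C 5 of the 9 were at least 2-fold higher in Kenshin and 0 lower, at 12 °C 0 were higher and 1 lower, and at 28 °C 1 was higher and 0 lower, beside 8.55% higher and 8.83% lower, 5.18% higher and 7.16% lower, and 10.3% higher and 8.28% lower among detected genes at those temperatures.

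BrCOL1 (Bra023541) read 1801, 661.1 and 170.4 in Kenshin at 22, 12 and 28 °C, against 145.5, 576.4 and 118.9 in Chiifu. It was 12.4-fold higher in Kenshin at 22 °C and 1.15-fold higher at 12 °C, whereas the BrFLC1 ratio lay below 1 at both. Its relatives were mixed. The ratios of Kenshin over Chiifu at 22, 12 and 28 °C were 11.1, 1.52 and 4.24 for BrCOL2 Bra021464. They were 5.5, 0.494 and 1.14 for BrCOL2 Bra001043. For BrHYH they were 11.3, 1.58 and 0.646 (Bra022225) and 7.13, 0.869 and 0.601 (Bra021258). BrPHYB (Bra001650) read 401.7, 1083 and 526.6 in Kenshin, against 716.6, 769.7 and 828.9 in Chiifu. Its Kenshin values were highest at 12 °C, as those of BrFLC5 were, with an LT ratio of 2.70 in Kenshin. The other BrPHYB copy, Bra022192, was brighter and went the other way. It was lowest at 12 °C in Kenshin, with an LT ratio of 0.669. BrPIF4 (Bra000283) was 2.58-fold higher after warming in Kenshin and 1.26-fold higher in Chiifu. For the other BrPIF4 copy, Bra037742, the warming ratio was 1.34 in Kenshin and 0.808 in Chiifu. These genes share all 6 samples with the copies, and with 1 sample per line and temperature none of these ratios has a replicate check.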

How the data were processed

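The authors hybridized Cy3-labelled shoot RNA to the Br135K array and deposited 1 linear intensity per gene and sample. The submitters' processing notes name RMA, and further steps of normalization and the software versions are not given in the sources used here. Intensities were used as deposited, with nothing added or subtracted. Detection meant more than 500 in 1 or more of 6 samples, and the cutoff was a ratio of 2 or more either way, both after the study's methods. The 9 ratios between single samples have no residual degrees of freedom and no p-value. Line and temperature were fitted additively to log2 intensities with lmFit and eBayes of limma 3.58.1 (R 4.3.3, 2 residual degrees of freedom, Benjamini-Hochberg over 41173 genes, threshold 0.05, two-sided), which was tested on simulated data. Other steps used Python 3.11.15, pandas 2.3.3 and numpy 2.4.6, and figures matplotlib 3.10.9. The number of arrays limits the precision. Genes named are the 4 copies and the 3 detected genes nearest to each by the root mean square difference. The study identified 9 flowering genes and 2 heat-response genes, which are named where past 2-fold. The other copies of BrPHYB and BrPIF4 are named beside them. The copies were picked by gene identity, but both they and the lists were chosen with earlier results of these data known. Alternatives were quantile normalization, scaling to the same median, 50 added, the random-sequence control subtracted, minimums of 250 and 1000 or none, a 3-fold cutoff, an intensity trend in eBayes, Pearson's r for likeness and, chosen after seeing the data, the samples of 1 temperature left out. A reference table of 51589 genes matched none of the 4 copies by identifier and was not used.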

Additional observations from a re-analysis of the deposited data

Results flagged for a closer look

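In 9 of 12 pairs of ratios within a line, a copy lay above 1 in one line and below 1 in the other, and this difference was not tested, since each ratio compares 2 samples. For LT this held for BrFLC1 (1.002 in Kenshin, 0.919 in Chiifu), BrFLC2 (1.211 in Kenshin, 0.9919 in Chiifu), BrFLC3 (1.085 in Kenshin, 0.9896 in Chiifu) and BrFLC5 (1.922 in Kenshin, 0.9661 in Chiifu). For warming it held for BrFLC1 (0.7563 in Kenshin, 1.574 in Chiifu), BrFLC2 (0.843 in Kenshin, 1.061 in Chiifu), BrFLC3 (0.9408 in Kenshin, 1.319 in Chiifu) and BrFLC5 (0.6192 in Kenshin, 1.045 in Chiifu). For minor warming it held for BrFLC1 alone (0.7577 in Kenshin, 1.447 in Chiifu). Several of these ratios differ from 1 by a few percent. The sign patterns of the copies, in the same order of the lines, were shown by 20.7% of detected genes for LT and 18.8% for warming. The share of detected genes on opposite sides of 1 in either order cannot be smaller and was not counted. How rare 9 of 12 is therefore cannot be said. For minor warming neither share was counted. LT and warming share the 12 °C samples, so their pairs are not separate.

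Signal was also present in the control features, which stand for no gene of the plant. The brightest marker feature read 1517 in Chiifu at 28 °C, above BrFLC5 in the same sample (943.1).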

How the results depend on the processing

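Of 144 recomputed ratios of the copies, 142 stayed on the same side of 2-fold. The exceptions were Kenshin over Chiifu at 12 °C for BrFLC1 with 50 added (0.5029, against 0.4932) and LT in Kenshin for BrFLC5 with the random-sequence control subtracted (2.005, against 1.922). The LT ratios of BrFLC2 (1.006) and BrFLC3 (1.003) in Chiifu crossed 1 with scaling to the same median. All 4 copies were detected over 250, and 3 over 1000 or over 500 in all 6 samples. The limma count for Kenshin over Chiifu (1091) became 1768 with detected genes only, 1742 with 50 added, 2306 with an intensity trend, and 0, 0 and 251 without the samples at 22, 12 and 28 °C, and the counts of 0 for LT, warming and minor warming became 5, 153 and 2 with the trend. BrFLC1 was called for Kenshin over Chiifu with the trend alone (adjusted p 0.0402). The cause of these shifts was not tested. Counts of detected genes past 2-fold (2794 to 5013) became 1027 to 2603 at 3-fold and 5988 to 8997 with no minimum. With 1 sample per line and temperature, the limma fits block on line or temperature, and no replicate within a line was at hand.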
